A study of Mus musculus with 8 samples.

Results

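The genes described here are 10 transcripts of the p53 and senescence programmes (Cdkn1a, Cdkn2a, Mdm2, Ccng1, Trp53inp1, Phlda3, Gdf15, Btg2, Bbc3 and Bax), chosen by name out of the 33467 genes of the authors' expression table, where each symbol had 1 row. They were measured by bulk RNA sequencing in liver of wild-type C57BL/6J mice. The DDC group (n = 4) ate feed with 1% 3,5-diethoxycarbonyl-1,4-dihydrocollidine, a porphyrin-raising compound used as a model of cholestatic injury and biliary fibrosis, for 4 weeks, and the control group (n = 4) ate a standard diet for the same time. Each library is 1 animal, all carry 1 batch label, and sex and age are not given in the sources used here. The question was which of these genes differed between DDC and control livers.

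p53, encoded by Trp53 in mouse, is a transcription factor that is held low by the ubiquitin ligase MDM2 and rises when DNA damage or other stress loosens that hold. Its target genes stop the cell cycle, repair DNA, limit growth signalling or start mitochondrial apoptosis, and Mdm2 is itself a target, which closes a feedback loop. Senescence is a lasting cell cycle arrest kept by the CDK inhibitors encoded by Cdkn1a (p21) and Cdkn2a (p16INK4a and p19ARF), often with secretion of cytokines and proteases. In liver both arrest and senescence have been described in hepatocytes, cholangiocytes and stellate cells.

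Promoter windows, from 250 bases before to 50 after each annotated start, are shown for the members whose window held the p53 consensus decamer, a motif that reads the same on both strands and is bound by a pair of p53 molecules. RefSeq (GRCm38.p6) gave 14 such windows for 9 of the 10 members. The decamer was found in 4 windows of 4 genes, Cdkn1a, Bax, Ccng1 and Mdm2, and in 8.36% of all 32851 windows. These members were chosen as p53 targets, so this share is no independent result. The windows lie at chr17:29090729-29091028 (+ strand) for Cdkn1a, chr7:45466849-45467148 (− strand) for Bax, chr11:40755237-40755536 (− strand) for Ccng1 and chr10:117710709-117711008 (− strand) for Mdm2, and capitals mark the decamers.
Cdkn1a: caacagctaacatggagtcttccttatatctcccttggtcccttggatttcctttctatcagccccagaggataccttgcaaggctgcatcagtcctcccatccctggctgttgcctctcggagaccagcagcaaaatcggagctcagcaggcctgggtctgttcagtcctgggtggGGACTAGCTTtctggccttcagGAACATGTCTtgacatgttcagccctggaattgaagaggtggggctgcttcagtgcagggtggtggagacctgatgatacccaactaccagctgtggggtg
Bax: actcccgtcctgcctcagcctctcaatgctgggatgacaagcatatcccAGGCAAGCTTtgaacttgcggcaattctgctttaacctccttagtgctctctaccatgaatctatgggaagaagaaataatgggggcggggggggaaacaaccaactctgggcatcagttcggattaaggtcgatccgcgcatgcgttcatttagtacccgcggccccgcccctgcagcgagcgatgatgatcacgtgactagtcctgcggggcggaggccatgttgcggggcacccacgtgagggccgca
Ccng1: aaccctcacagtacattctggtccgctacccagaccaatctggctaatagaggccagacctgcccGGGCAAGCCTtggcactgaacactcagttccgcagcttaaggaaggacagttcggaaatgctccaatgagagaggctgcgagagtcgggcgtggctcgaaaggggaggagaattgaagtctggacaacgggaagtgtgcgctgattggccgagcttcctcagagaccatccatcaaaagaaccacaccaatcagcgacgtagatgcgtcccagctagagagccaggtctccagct
Mdm2: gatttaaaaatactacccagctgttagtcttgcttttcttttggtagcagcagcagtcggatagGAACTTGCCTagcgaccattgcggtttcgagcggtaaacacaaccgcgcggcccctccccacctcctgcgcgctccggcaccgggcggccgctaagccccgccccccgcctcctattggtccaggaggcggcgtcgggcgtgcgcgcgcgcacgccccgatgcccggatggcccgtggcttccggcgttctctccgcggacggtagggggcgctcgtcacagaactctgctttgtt
In Cdkn1a and Ccng1 a decamer had a neighbour directly beside it with 1 base off the consensus, the paired arrangement that p53 tetramers bind. Such pairs, allowing at most 1 mismatch with both C and G cores kept, were in 0.067% of all windows (22 of 32851).
Cdkn1a paired site: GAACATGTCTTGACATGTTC
Ccng1 paired site: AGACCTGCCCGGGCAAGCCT
The Cdkn1a pair begins 51 bases before the upstream of 2 annotated Cdkn1a starts, and the Ccng1 pair begins 195 bases before the Ccng1 start. A match is a description of the letters and not a measurement of binding. The windows of Cdkn2a, Phlda3, Gdf15, Btg2 and Bbc3 held no exact decamer, which says only that these letters are not in those windows.

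The libraries of a group were not all alike. By a chi-square of counts over genes divided by its degrees of freedom, controls 1 and 3 (13.6) and controls 2 and 4 (62.9) were nearer to each other than across these pairs (164 to 223). DDC 1 stood apart from the other DDC livers (94.4 to 105, against 16.8 to 24 among DDC 2 to 4). The source of these differences was not tested.

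Values are CPM, the counts of a gene relative to its library's total, scaled by the trimmed mean of M-values (TMM), a factor that corrects library totals for a few very abundant genes. Libraries held 61179103 to 81664058 counts, and TMM factors ran from 1.21 to 1.27 in DDC and from 0.792 to 0.816 in control libraries. A gene was called where edgeR's quasi-likelihood test gave a Benjamini-Hochberg adjusted p under 0.05 over 19535 tested genes. All 10 members passed the count filter, Cdkn2a only through its DDC libraries, so that its difference was in part a condition of its being tested. Of the 10 members 6 rose (Cdkn1a, Cdkn2a, Mdm2, Ccng1, Phlda3 and Bax), 1 fell (Trp53inp1) and 3 were not called (Gdf15, Btg2 and Bbc3). Among all tested genes 30.2% were called higher and 26.6% lower in DDC, and 56.8% in either direction. Without Cdkn2a 5 of 9 rose and 1 fell, and the median log2 fold change of these 9 was 0.27, against 0.073 for all tested genes. Of the 10 members 5 lay wholly above controls in DDC livers and 1, Trp53inp1, wholly below. Without Cdkn2a 4 of 9 lay wholly above and 1 wholly below. Among all tested genes 26.9% lay wholly above and 25.7% wholly below controls (52.6% in either direction).

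**Figure D1:**
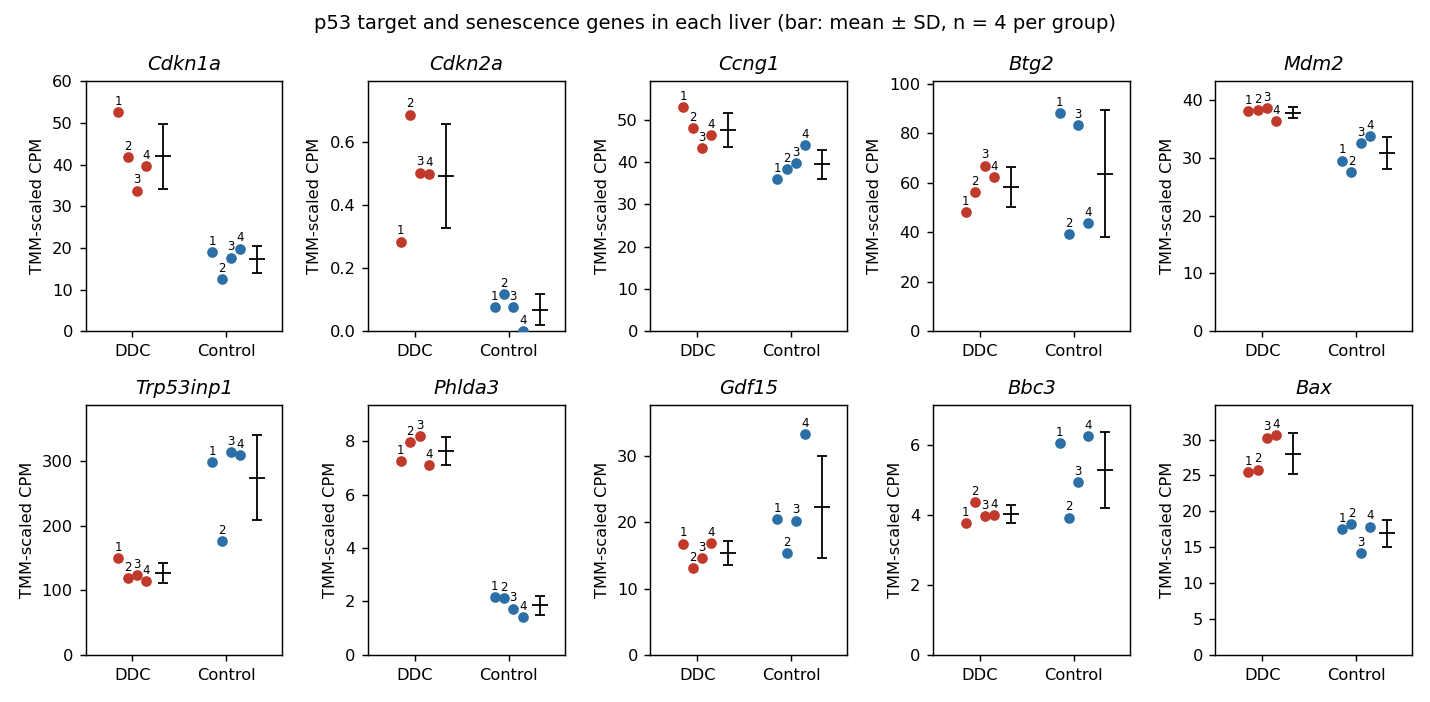
TMM-scaled CPM of each member (y axis, linear from 0) in each liver, DDC in red and control in blue; numbers are replicates and bars are mean ± SD (n = 4 per group). Cdkn1a, Cdkn2a, Mdm2, Phlda3 and Bax lie wholly above controls in DDC livers, Trp53inp1 lies wholly below, and Btg2, Gdf15, Bbc3 and Ccng1 overlap.

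Cdkn1a (ENSMUSG00000023067, chromosome 17, 29090976 to 29100727, + strand, GRCm38) encodes p21, the inhibitor of cyclin-CDK complexes that carries out p53-dependent arrest. It was 52.6, 41.9, 33.7 and 39.6 CPM in DDC livers 1 to 4, against 18.9, 12.6, 17.7 and 19.8 CPM in control livers 1 to 4. The lowest DDC liver stood above the highest control, and DDC 1 was the highest of the 8. Cdkn1a rose 2.43-fold, to 42.0 ± 7.88 CPM in DDC against 17.2 ± 3.25 CPM in controls (SD, n = 4 each; log2 fold change 1.28, SE 0.17, edgeR adjusted p = 0.000155). An opposite-strand transcript of unknown coding status, AC167363.2, covers 273 of the 3553 exonic bases of Cdkn1a. That transcript had 47 to 76 counts in DDC and 10 to 22 in control libraries, against 3494 to 4078 and 641 to 977 for Cdkn1a.

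Cdkn2a (ENSMUSG00000044303, chromosome 4, 89274471 to 89294653, − strand) encodes p16INK4a, which blocks CDK4 and CDK6, and p19ARF, which binds MDM2, from separate first exons. The authors' gene-level counts do not separate these products. Raw counts were 22, 58, 52 and 46 in DDC livers 1 to 4, against 4, 6, 4 and 0 in control livers 1 to 4. The transcript was thus scarce in both groups, with every DDC liver above every control. Cdkn2a rose 7.07-fold, to 0.493 ± 0.165 CPM in DDC against 0.0678 ± 0.0491 CPM in controls (SD, n = 4 each; edgeR adjusted p = 0.00848). Since it had to be high in DDC livers to be tested, this p is given as a description. With 178 counts over the DDC and 14 over the control libraries the size of this change is loosely held, with a 95% interval of the log2 fold change from 1.19 to 4.46.

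Ccng1 (ENSMUSG00000020326, chromosome 11, 40748552 to 40755311, − strand) encodes cyclin G1, a p53-induced cyclin that recruits phosphatase 2A to MDM2. It was 52.9, 48.0, 43.3 and 46.4 CPM in DDC livers 1 to 4, against 36.0, 38.2, 39.6 and 44.0 CPM in control livers 1 to 4. DDC 3 was below control 4, so the groups overlapped by 1 liver on each side. Ccng1 rose 1.21-fold (log2 fold change 0.27, SE 0.08, n = 4 each, edgeR adjusted p = 0.0175). The call ended without control 1, DDC 1 or DDC 2 (edgeR adjusted p = 0.0559, 0.059 and 0.0501).

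Btg2 (ENSMUSG00000020423, chromosome 1, 134075170 to 134079120, − strand) encodes an antiproliferative protein that recruits the CCR4-NOT deadenylase and is also an immediate early gene. It was 48.2, 56.3, 66.9 and 62.2 CPM in DDC livers 1 to 4, against 88.2, 39.2, 83.2 and 43.6 CPM in control livers 1 to 4. Controls 1 and 3 were above every DDC liver and controls 2 and 4 below every DDC liver, the same pairs of controls that stood nearer to each other over all genes. Btg2 was not called (log2 fold change -0.12, 95% interval -0.77 to 0.52, n = 4 each, edgeR adjusted p = 0.725), and the interval holds changes of both directions. The sign changed without control 1 or control 3, with log2 fold changes of 0.068 and 0.026.

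Mdm2 (ENSMUSG00000020184, chromosome 10, 117688875 to 117710758, − strand), the p53 ubiquitin ligase, was 38.1, 38.3, 38.6 and 36.4 CPM in DDC livers 1 to 4, against 29.6, 27.6, 32.6 and 33.8 CPM in control livers 1 to 4. The DDC livers lay close together and all stood above the controls. Mdm2 rose 1.23-fold (log2 fold change 0.29, SE 0.07, n = 4 each, edgeR adjusted p = 0.00619). Its paralog Mdm4, which binds and restrains p53 without ligase activity of its own, was 92.6 ± 3.96 CPM in DDC and 91.0 ± 1.26 CPM in control livers (SD, n = 4 each). Mdm4 was not called (edgeR adjusted p = 0.679; 95% interval of the log2 fold change -0.088 to 0.14). With library totals alone it was called higher (log2 fold change 0.65), below the median of 0.70 for all tested genes under that scaling. Trp53 itself rose 2.02-fold, to 36.4 ± 1.99 CPM in DDC against 18.02 ± 0.798 CPM in controls (SD, n = 4 each; edgeR adjusted p = 1.05e-06). p53 is controlled mainly at the level of protein, which was not measured here.

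Trp53inp1 (ENSMUSG00000028211, chromosome 4, 11156431 to 11174379, + strand) encodes a stress-induced nuclear protein that promotes p53 phosphorylation and autophagy. It was the member that fell, with 150, 119, 124 and 114 CPM in DDC livers 1 to 4, against 299, 176, 315 and 310 CPM in control livers 1 to 4. Control 2 was the lowest control and still above all DDC livers. Trp53inp1 was 2.17-fold lower in DDC (log2 fold change -1.12, SE 0.18, n = 4 each, edgeR adjusted p = 0.000654). In the authors' FPKM, which are scaled to library totals, DDC 4 had 21.4 and control 2 had 21.5, so that the group ranges overlapped there (21.4 to 27.2 in DDC, 21.5 to 38.2 in controls).

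Phlda3 (ENSMUSG00000041801, chromosome 1, 135766119 to 135769136, + strand) encodes a pleckstrin-homology protein that competes with AKT for membrane lipids. It was 7.25, 7.96, 8.18 and 7.10 CPM in DDC livers 1 to 4, against 2.17, 2.12, 1.73 and 1.42 CPM in control livers 1 to 4. Both groups were tight and far apart. Phlda3 rose 4.09-fold (log2 fold change 2.03, SE 0.17, n = 4 each, edgeR adjusted p = 7.10e-06), and 8.86% of all tested genes had a larger log2 fold change.

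Gdf15 (ENSMUSG00000038508, chromosome 8, 70629393 to 70632456, − strand) encodes a secreted stress hormone of the TGF-beta superfamily that acts on a brainstem receptor and responds to p53 and to the integrated stress response. It was 16.8, 13.1, 14.7 and 16.9 CPM in DDC livers 1 to 4, against 20.5, 15.3, 20.3 and 33.3 CPM in control livers 1 to 4. Only control 2 lay within the DDC range, and control 4 was the highest liver. Gdf15 was not called (log2 fold change -0.54, 95% interval -1.02 to -0.054, n = 4 each, edgeR adjusted p = 0.0571). It was called lower without control 2 (log2 fold change -0.69, adjusted p = 0.0124), while without control 4 the log2 fold change was -0.29 (adjusted p = 0.104).

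Of the apoptosis genes, Bax (ENSMUSG00000003873, chromosome 7, 45461697 to 45466898, − strand) encodes the protein that permeabilises the outer mitochondrial membrane. It was 25.4, 25.8, 30.3 and 30.7 CPM in DDC livers 1 to 4, against 17.5, 18.2, 14.2 and 17.9 CPM in control livers 1 to 4. The groups were fully apart, with control 3 the lowest liver. Bax rose 1.66-fold (log2 fold change 0.73, SE 0.10, n = 4 each, edgeR adjusted p = 0.000226). A same-strand gene, Gm45808, covers 192 of the 1576 exonic bases of Bax and had 0 to 18 counts in DDC and 0 to 10 in control libraries, against 1971 to 3135 and 745 to 928 for Bax.

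Bbc3 (ENSMUSG00000002083, chromosome 7, 16308393 to 16318205, + strand) encodes PUMA, a BH3-only protein that frees BAX and BAK from their inhibitors. It was 3.75, 4.37, 3.96 and 3.99 CPM in DDC livers 1 to 4, against 6.05, 3.92, 4.92 and 6.23 CPM in control livers 1 to 4. Controls 1, 3 and 4 were above every DDC liver and control 2 was within their range. Bbc3 was not called (log2 fold change -0.39, 95% interval -0.78 to -0.0045, n = 4 each, edgeR adjusted p = 0.0778), and it was called lower without control 2 (log2 fold change -0.52, adjusted p = 0.0173).

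The sign of 3 members depended on how libraries were scaled. With library totals alone the median log2 fold change of all tested genes moved by 0.62, to 0.70 against 0.073 with TMM. Under that scaling Gdf15, Bbc3 and Btg2 had log2 fold changes of 0.090, 0.23 and 0.50, none of them called. The 6 members that rose remained higher and Trp53inp1 remained lower (log2 fold change -0.49, edgeR adjusted p = 0.0297). Of all 19535 tested genes 11501 were called higher and 1750 lower under that scaling, so a call of higher was common there. Relative to the median of all tested genes the members stood at nearly the same place under both scalings. Phlda3 was 1.96 above that median with TMM, Cdkn1a 1.21, Bax 0.66, Mdm2 0.22 and Ccng1 0.20 on the log2 scale. Btg2, Bbc3, Gdf15 and Trp53inp1 stood at -0.20, -0.47, -0.61 and -1.19 from it. Mdm2 and Ccng1 were thus the called members nearest to that median.

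**Figure D2:**
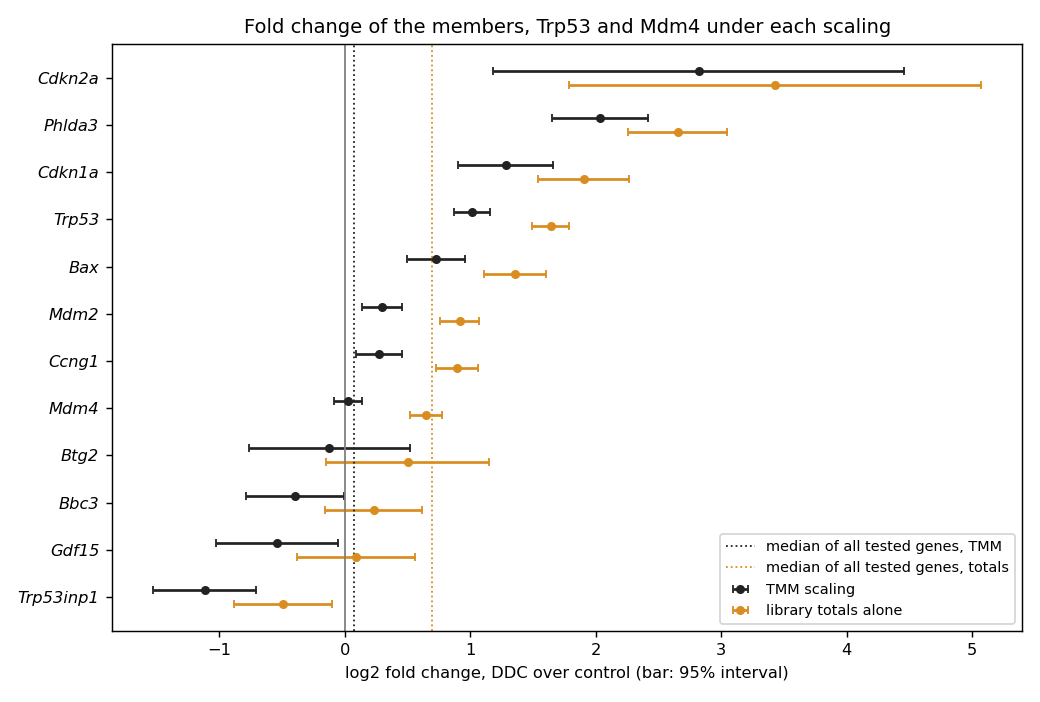
Log2 fold change, DDC over control (x axis), with 95% intervals for the 10 members, Trp53 and Mdm4 (n = 4 livers per group), with TMM scaling in black and library totals alone in orange; dotted lines are the median of all tested genes under each scaling (0.073 and 0.70). Each gene shifts right by about the same amount as the median, so Btg2, Bbc3 and Gdf15 cross 0 while Trp53inp1 stays below it.

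Levels between genes were compared per length, by the authors' FPKM, which scale to library totals. In DDC livers Btg2, Trp53inp1 and Bax were the most abundant members, at 25.5 ± 3.99, 23.4 ± 2.73 and 21.3 ± 2.59 FPKM (SD, n = 4), and their ranges overlapped each other in that order. In control livers Trp53inp1 and Btg2 led at 33.03 ± 7.76 and 18.1 ± 7.36 FPKM, with overlapping ranges, and Gdf15, Ccng1 and Bax followed at 9.36 ± 3.07, 8.75 ± 0.665 and 8.35 ± 0.901 FPKM, again with overlap between neighbours. Cdkn1a was 14.1 ± 2.45 FPKM in DDC livers, below Ccng1 with overlapping ranges, and 3.77 ± 0.673 FPKM in control livers, below Mdm2 without overlap. Bbc3 lay below Phlda3 in DDC livers (2.25 ± 0.134 and 5.84 ± 0.436 FPKM) and above it in control livers (1.92 ± 0.371 and 0.923 ± 0.185 FPKM), without overlap in either group. Cdkn2a was the lowest member in both groups, at 0.491 ± 0.163 FPKM in DDC livers, and was listed at 0 in control 4.

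**Figure D3:**
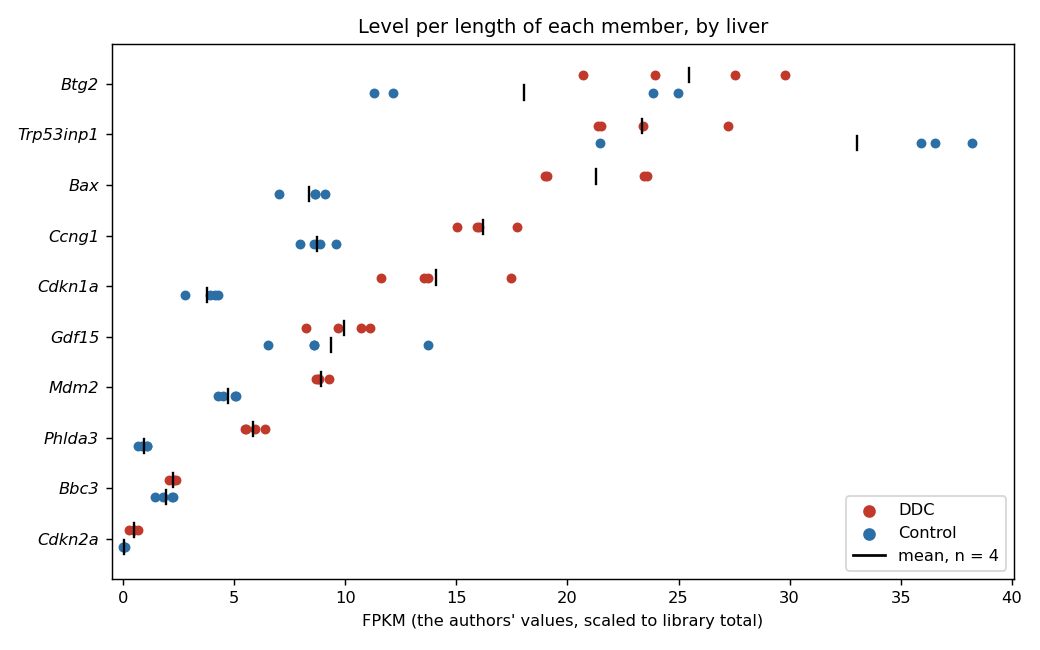
FPKM of each member (x axis, the authors' values scaled to library total) in each liver, DDC in red above control in blue; black ticks are group means (n = 4). Btg2, Trp53inp1 and Bax are the highest in DDC livers, and the Bbc3 and Phlda3 points change order between the groups.

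DDC livers are a mixed tissue, and fewer cells of a type and less RNA per cell cannot be told apart in these libraries. The labelled tissue carried its markers, since 8 hepatocyte markers summed to 57280 to 72460 CPM in DDC and 140700 to 169700 CPM in control livers, with 8 of 8 lower in DDC. Macrophage markers summed to 1666 to 1784 CPM in DDC and 233 to 291 CPM in control livers (11 of 11 higher). Cholangiocyte markers summed to 723 to 1106 CPM in DDC and 82.9 to 164 CPM in control livers (7 of 8 higher, Sctr at 0 in a library). On average most of the DDC sum was Spp1, at 728 ± 149 CPM in DDC against 50.8 ± 1.91 CPM in controls (SD, n = 4 each). The size of the shift in this sum is thus largely that of Spp1. The upper control limit of the sum was control 2 alone, and without it the controls lay between 82.9 and 90.6 CPM. Without control 2 the cholangiocyte keratin gene Krt19 was called higher (log2 fold change 1.79, edgeR adjusted p = 0.00309), against 0.64 and no call with it, and Epcam had a log2 fold change of 3.88 against 2.83 with it. Control 2 was also the control with the least Trp53inp1, Trp53, Cdkn1a, Mdm2, Gdf15, Btg2 and Bbc3. It had the most Cdkn2a, Bax and Mdm4 of the controls, and lay between other controls for Ccng1 and Phlda3. Stellate cell and fibroblast markers summed to 706 to 882 CPM in DDC and 148 to 205 CPM in control livers (4 of 7 higher), with controls between 148 and 165 CPM without control 2. Acta2, smooth muscle actin, was called higher without control 2 (log2 fold change 1.6, edgeR adjusted p = 0.000673, against -0.25 and no call with it). Without DDC 1, Des, which encodes desmin, was called lower (log2 fold change -2.13, edgeR adjusted p = 0.000483), and Lrat, a stellate cell retinol enzyme, higher (0.43, adjusted p = 0.0117). Endothelial markers summed to 121 to 160 CPM in DDC and 101 to 124 CPM in control livers (2 of 5 higher), lymphocyte markers to 6.72 to 10.4 CPM in DDC and 3.76 to 4.90 CPM in controls (3 of 6 higher, 2 lower), and neutrophil markers to 79.1 to 109 CPM in DDC and 21.8 to 27.6 CPM in controls (3 of 4 higher, Ly6g at 0 in a library). Single libraries also decided 4 other marker calls. Those of Cd3g (without control 1 or DDC 3) and Cd79a (without control 1, control 3, DDC 2 or DDC 4) ended, and Nkg7 (without control 2) and Pecam1 (without DDC 2) were called higher. With library totals alone 11 macrophage, 7 cholangiocyte, 5 stellate cell and fibroblast, 5 endothelial, 4 lymphocyte and 3 neutrophil markers were called higher, and 1 lymphocyte and 7 hepatocyte markers lower. Of all 19535 tested genes 11501 were called higher and 1750 lower under that scaling, against 30.2% and 26.6% with TMM. The part of these shifts in the members' changes was not tested.

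Of 34 further p53 target genes from textbook knowledge 19 rose, 8 fell and 7 were not called. Their median log2 fold change was 0.57 against 0.073 for all tested genes, of which 30.2% were called higher and 26.6% lower. With library totals alone 28 of the list were called higher and 4 lower, against 11501 higher and 1750 lower of all 19535 tested genes. These shares are the background for the counts of the lists below as well. Tnfrsf10b, the mouse TRAIL death receptor, rose 9.06-fold to 6.11 ± 0.687 CPM in DDC against 0.672 ± 0.251 CPM in controls (SD, n = 4 each; edgeR adjusted p = 1.61e-05). Psrc1, a mitotic spindle protein, rose 7.16-fold and Ckap2, a spindle protein, 6.92-fold (edgeR adjusted p = 3.37e-05 and 3.22e-05). Plk3, a stress-responsive polo-like kinase, fell most of the 8, and was 3.99-fold lower at 106 ± 5.96 CPM in DDC against 422 ± 102 CPM in controls (edgeR adjusted p = 5.14e-06). Genes of this list thus moved in both directions, as the members did.

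Of 18 genes that regulate p53, 16 were tested and 7 rose while 7 fell, against 30.2% and 26.6% of all tested genes. The median was 0.025 on the log2 scale. With library totals alone 14 were called higher and none lower, so the direction of the falls rests on the scaling. Beside Trp53, the largest rises were the checkpoint kinases Chek1, 2.70-fold, and Chek2, 2.02-fold (edgeR adjusted p = 0.000295 and 0.00661). Cop1, a ubiquitin ligase for p53, was 1.47-fold lower (edgeR adjusted p = 0.000338), and under library totals alone it was not called, at 0.062 on the log2 scale. Trp63 and Trp73, the p53 relatives, did not pass the count filter.

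Among 13 BCL2 family genes 4 rose, 1 fell and 8 were not called (median log2 fold change 0.078). The share that rose was near that of all tested genes, of which 30.2% rose and 26.6% fell. With library totals alone 10 were called higher and 1 lower. Pmaip1, the BH3-only protein NOXA and also one of the p53 targets above, rose 3.07-fold to 6.87 ± 0.386 CPM in DDC against 2.24 ± 0.433 CPM in controls (SD, n = 4 each; edgeR adjusted p = 3.11e-05). Bcl2, an inhibitor of apoptosis, rose 2.68-fold, and Bak1, the partner of BAX in membrane permeabilisation, 2.31-fold (edgeR adjusted p = 2.64e-05 and 1.03e-06). The gene that fell, named after its values were seen, was Hrk, a BH3-only protein, at 0 CPM in DDC 1 to 3 and 0.0651 CPM in DDC 4, against 0.818 to 1.26 CPM in controls. Hrk passed the count filter only through its control libraries.

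Among 16 CDK inhibitors, RB family members, G1 cyclins and the kinases Cdk2, Cdk4 and Cdk6, 8 rose, 3 fell and 5 were not called (median log2 fold change 0.39). For all tested genes the shares were 30.2% higher and 26.6% lower. With library totals alone 15 of the list were called higher and none lower. Ccnd1, cyclin D1, rose 7.07-fold to 196 ± 14.3 CPM in DDC against 27.6 ± 9.99 CPM in controls (SD, n = 4 each; edgeR adjusted p = 2.25e-05). Rbl1, the pocket protein p107, rose 4.13-fold, and Cdkn2b, which encodes p15INK4b next to Cdkn2a, 3.39-fold (edgeR adjusted p = 3.58e-06 and 0.0106). Rbl2, the pocket protein p130, was 1.73-fold lower (edgeR adjusted p = 4.84e-05), and under library totals alone it was not called, at -0.17 on the log2 scale.

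E2F and DREAM targets, cell cycle genes that p21 and the pocket proteins hold down, rose in 24 of 25 cases with none lower (median log2 fold change 1.77). For all tested genes the shares were 30.2% higher and 26.6% lower. With library totals alone 25 of the list were called higher. Cdc20, an activator of mitotic exit, rose 7.56-fold to 11.7 ± 1.07 CPM in DDC against 1.55 ± 0.338 CPM in controls (SD, n = 4 each). The replication helicase genes Mcm2 and Mcm5 rose 6.25-fold and 5.98-fold (edgeR adjusted p = 1.21e-07 and 1.55e-07). These transcripts and Cdkn1a were thus higher in the same livers, and bulk libraries do not show whether in the same cells.

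Of 25 senescence-associated secretory genes 24 were tested, 17 rose and 2 fell (median log2 fold change 2.17), against 19 higher and 1 lower with library totals alone. For all tested genes the shares were 30.2% higher and 26.6% lower. Mmp12, a macrophage elastase, rose 82.9-fold to 128 ± 20.8 CPM in DDC against 1.54 ± 0.415 CPM in controls (SD, n = 4 each; edgeR adjusted p = 7.87e-08). Mmp13, a collagenase, rose 20.7-fold and Cxcl2, a neutrophil chemokine, 18.2-fold (edgeR adjusted p = 1.17e-05 and 3.47e-05). Mmp13, at 0.204 ± 0.103 CPM in controls, passed the count filter only through its DDC libraries, so its p is given as a description. Tnf, named after its values were seen, was as low in controls (0.195 ± 0.0923 CPM, SD, n = 4) and was called higher. The count and median of this list include both genes, whose rise was in part a condition of testing. Igfbp4, an IGF-binding protein, was 2.01-fold lower at 769 ± 22.6 CPM in DDC against 1548 ± 36.5 CPM in controls (edgeR adjusted p = 5.15e-07). Il6 did not pass the count filter. Macrophages also express many of these genes. The sums of macrophage, cholangiocyte, stellate cell and fibroblast, lymphocyte and neutrophil markers were all higher in DDC livers. Within the lymphocyte list 2 of 6 markers were called lower, and in the stellate cell and fibroblast list 4 of 7 were called higher. The part of these cell types in the changes of the secretory genes was not tested.

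Among 9 senescence-associated chromatin and lysosome genes 4 rose and 2 fell (median log2 fold change 0.037), and with library totals alone 7 were called higher and 1 lower. For all tested genes the shares with TMM were 30.2% higher and 26.6% lower. Lmnb1, the nuclear lamina gene whose loss is a senescence marker, rose 2.37-fold to 9.40 ± 0.790 CPM in DDC against 3.97 ± 0.820 CPM in controls (SD, n = 4 each; edgeR adjusted p = 0.000126). Hmgb2, a chromatin protein that is likewise lost in senescence, rose 2.12-fold (edgeR adjusted p = 0.000108). Its relative Hmgb1, named after its values were seen, went the other way and was 1.36-fold lower (edgeR adjusted p = 0.00919). Under library totals alone Hmgb1 was not called, at 0.17 on the log2 scale. Hmga2, an architectural chromatin protein, was 2.87-fold lower (edgeR adjusted p = 0.0039). Glb1, the gene of lysosomal beta-galactosidase whose activity is the classical senescence stain, was 19.4 CPM in both groups and was not called (named after its values were seen). With library totals alone it was called higher (log2 fold change 0.62, edgeR adjusted p = 0.00237), below the median of 0.70 for all tested genes under that scaling.

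Among 10 Polycomb and T-box repressors of the Cdkn2a locus 3 rose, 3 fell and 4 were not called (median log2 fold change -0.04), against 56.8% of all tested genes called in either direction. With library totals alone 7 were called higher and none lower. Ezh2, the Polycomb methyltransferase, rose 1.65-fold and Rnf2, a Polycomb ubiquitin ligase, was 1.37-fold lower (edgeR adjusted p = 0.00341 and 0.00154). Rnf2 was not called under library totals alone, at 0.17 on the log2 scale. Tbx2 rose 1.35-fold (edgeR adjusted p = 0.0298), a call that ended when any of 6 of the 8 libraries was left out (adjusted p from 0.0515 to 0.0905).

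Integrated stress response genes, the other known inducers and companions of Gdf15, fell in 5 of 9 tested cases and rose in 1 (median log2 fold change -0.35), against 1 lower and 5 higher with library totals alone. For all tested genes the shares with TMM were 26.6% lower and 30.2% higher. Atf3, a stress transcription factor, rose 4.94-fold to 20.1 ± 4.11 CPM in DDC against 4.07 ± 0.556 CPM in controls (SD, n = 4 each; edgeR adjusted p = 3.35e-06). Chac1, a glutathione-degrading enzyme induced by ATF4, was 4.15-fold lower and Trib3, a pseudokinase of the same response, 2.07-fold lower (edgeR adjusted p = 0.00437 and 0.00159). Under library totals alone Chac1 was still called lower and Trib3, at -0.43 on the log2 scale, was not.

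Among paralogs of the members 5 of 9 tested fell, 2 rose and 2 were not called (median log2 fold change -0.74), against 3 lower and 3 higher with library totals alone. For all tested genes the shares with TMM were 26.6% lower and 30.2% higher. Phlda2, a relative of Phlda3, rose 22.4-fold to 2.36 ± 0.0515 CPM in DDC against 0.104 ± 0.0811 CPM in controls (SD, n = 4 each; edgeR adjusted p = 0.000227). Phlda2 passed the count filter only through its DDC libraries, so this p is given as a description, and the 2 paralogs that rose include it. Phlda1, the other relative, was 5.11-fold lower (edgeR adjusted p = 0.000306), and Tob1, an antiproliferative relative of Btg2, 2.21-fold lower (edgeR adjusted p = 1.5e-05).

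**Figure D4:**
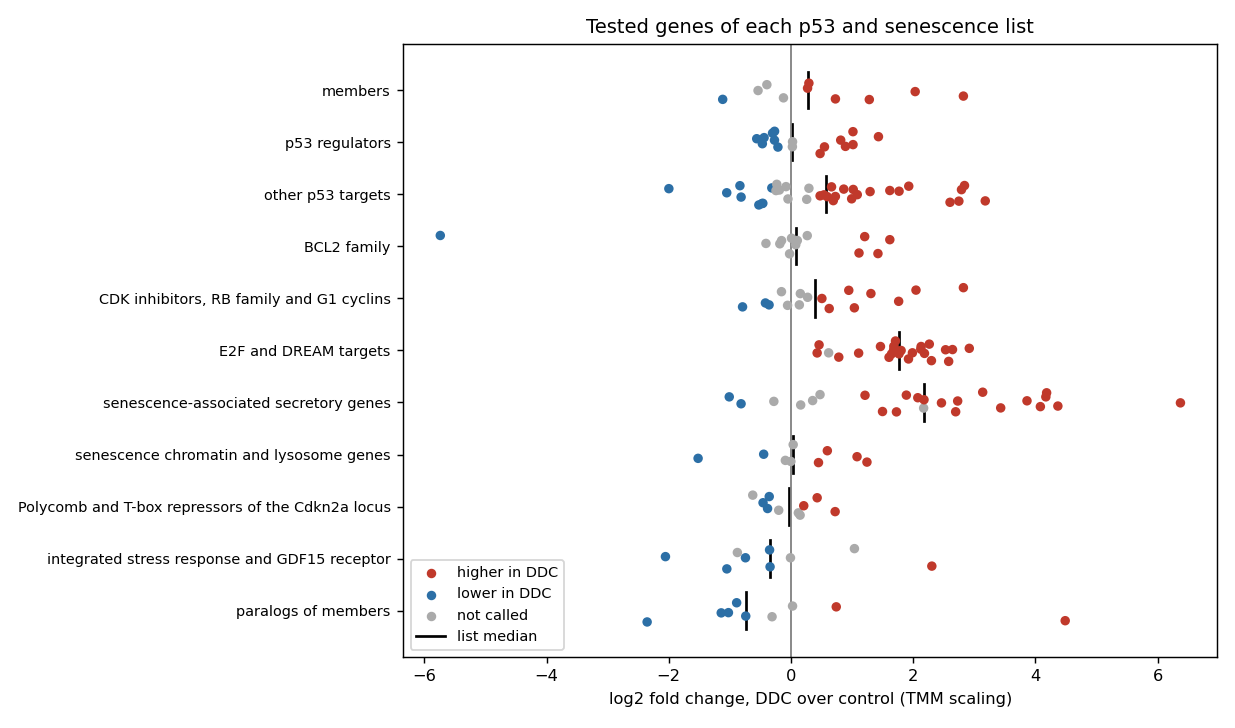
Log2 fold change, DDC over control with TMM scaling (x axis), of every tested gene in each list (rows; n = 4 livers per group), red where called higher, blue where called lower and grey where not called, with black ticks at list medians. The E2F and DREAM row lies to the right of 0 (24 of 25 called higher), while p53 regulators and member paralogs fall on both sides.

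The tested genes whose profile over the 8 livers was nearest to that of Cdkn1a, by Euclidean distance of log2 CPM centred on the control mean among 15535 genes at 1 CPM or more, were Eif4e3, Pdgfra and Prcp (distances 0.441, 0.451 and 0.475 log2 units). For Cdkn2a they were Spdl1, 1700051A21Rik and Tnc, which lay farther off (0.665, 1.46 and 1.47 log2 units). Cdkn2a had 0 counts in control 4, so these distances rest on the 0.01 CPM added before the logarithm. With 0.1 CPM added, a setting chosen after seeing the data, the nearest genes were Aunip, Arhgap15 and Cds1 (0.558, 0.669 and 0.681 log2 units), while the 3 genes nearest to Cdkn1a had the same names. Spdl1 was 2.88 ± 1.19 CPM in DDC and 0.470 ± 0.294 CPM in control livers (SD, n = 4 each).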

How the data were processed

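Liver RNA of 8 mice was sequenced after selection of polyadenylated RNA with dUTP-marked second strands, per the labels' protocols. The authors deposited raw counts per Ensembl gene (55401 genes, 21933 at 0 in every library) and FPKM, their counts scaled by length and library total (33467 genes). Tools named in the submitters' processing notes are HISAT2, StringTie, cutadapt, FastQC and DESeq2, with builds GRCm38 and mm10. The strand setting of the counting was not given in the sources used here. Coordinates are those of the deposited table, equal to GENCODE M21 for all members.

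The counts of all 8 libraries entered edgeR's robust quasi-likelihood fit (edgeR 4.0.16 in R 4.3.3) after filterByExpr and TMM, without covariates, and tests were two-sided, and p-values were adjusted over 19535 genes. CPM are TMM-scaled, and fold changes are DDC over control. SE is the log2 fold change over the square root of F, and 95% intervals use the fit's degrees of freedom. Libraries held 61179103 to 81664058 counts, which limits the precision most for Cdkn2a.

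The members and lists were chosen with earlier results of these data known. Genes named are the members, Trp53 and Mdm4, from each list the 3 called genes that changed most and the called gene that changed most against the list's majority (all at 1 CPM or more in the higher group), and the 3 nearest profiles of Cdkn1a and Cdkn2a, by log2(CPM + 0.01). Alternatives were other scalings and filters, DESeq2 1.42.0, limma 3.58.1 (voom, log2(FPKM + 1) and log2(FPKM + 0.1)), edgeR's test for changes beyond a fold of 1.5, each library left out and a replicate block. By a chi-square of counts over genes, no pair of libraries within a group agreed within sampling noise, and the report gives how they group. The labels call the samples biological replicates.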

Additional observations from a re-analysis of the deposited data

Results flagged for a closer look

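In 24 sets of 4 livers (10 members, Trp53 and Mdm4 in each group), 3 had a liver far from the others by Dixon's ratio at its 95% critical value, where chance flags about 1 in 20 sets. Trp53inp1 was 176.1 CPM in control 2, against 299 CPM in the next control. Trp53 was 16.82 CPM in control 2, against 18.3 CPM in the next control. Bax was 14.17 CPM in control 3, against 17.5 CPM in the next control. In each of these genes the flagged liver was the lowest control. Trp53inp1 kept its call without control 2 and Bax without control 3.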

How the results depend on the processing

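Of the members, Cdkn1a, Cdkn2a, Phlda3 and Trp53inp1 kept their direction and their call under every alternative that gave a value; the filter of 1 CPM in 4 libraries left Cdkn2a untested. With library totals alone, log2(FPKM + 0.1) and log2(FPKM + 1), signs turned for Gdf15 (0.090, 0.13 and 0.11), Bbc3 (0.23, 0.24 and 0.16) and Btg2 (0.50, 0.58 and 0.55), all 3 settings being scaled to library totals. Under the same 3 settings genes called higher numbered 11501, 11976 and 11987 and genes called lower 1750, 1826 and 1815, against 5893 and 5205. Against a fold of 1.5, Bax (0.73), Mdm2 (0.29) and Ccng1 (0.27) were not called, 3 members were called higher, and genes called were 3316 higher and 2120 lower. DESeq2 called Gdf15 lower (-0.52), which made 2 members called lower, with 6818 genes called higher and 5302 lower. Leaving out 1 library gave 0.20 to 0.33 for Ccng1, -0.31 to 0.068 for Btg2, -0.69 to -0.29 for Gdf15 and -0.52 to -0.31 for Bbc3, with 5 to 6 members called higher and 1 to 3 lower (3 without control 2). Over the same fits 5039 to 6228 of all tested genes were called higher and 4593 to 5532 lower. Without control 2 these were 5810 higher and 5182 lower of 20494 tested genes. In the lists, calls of Sesn1, Sesn2, Gadd45a, Rpl11, Cdkn1c, Rrm2, Bmi1, Cbx7 and Tbx2 each ended when some single libraries were left out. Fas, Xpc, Ppm1d, Bcl2l1, Mmp3, Fgf2, Asns, Fgf21, Atf5, Btg1, Eed and Tbx3 each gained a call in this way. These genes, apart from Tbx2, are named after their values were seen. The cause of these changes was not tested. The labels used here give no pairing of same-numbered livers. The deviations of same-numbered livers from group means correlated at -0.215 to 0.0292, and 0 of 8 libraries correlated best with their own number. With 4 livers per group this cannot exclude that such livers share more than a number. With the number as a replicate block Ccng1 was not called (0.27, adjusted p = 0.0547), Gdf15 was called lower (-0.49, adjusted p = 0.0293), and 2 members were called lower, with 4810 genes higher and 4654 lower. Depth limits Cdkn2a most, at 14 counts over the 4 controls.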
